A study of Mus musculus with 23 samples.

Results

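Four-day untreated air-liquid interface cultures of mouse lung epithelium were set against the freshly isolated cells they were grown from, to see which programmes of the cells in the lung were kept, regained or lost in culture. The comparison takes in every library labelled as a day 4 control (7) and every library labelled as day of isolation (3), which makes 10 of the 23 libraries of the series. The libraries come from 3 experiments, A, B and C, with 1 fresh library each and 2, 2 and 3 day 4 libraries. The 6 untreated libraries taken at airlift, the moment the medium above the cells is removed, were fitted together with them and are given only as the stage in between. All of these libraries carry the labels C57BL/6 wild type, lung and untreated control. The study's design text names C57BL/6J mice and cells selected for EpCAM, the surface protein by which epithelial cells are isolated, and cultured in transwells. The remaining 7 libraries, from cultures treated with NTHi, are not described here. The sources used here give no age of the mice and no number of days between isolation and airlift, and they do not say whether the replicates of an experiment came from separate animals or wells, so a p-value here sets differences against a spread among libraries that may be technical.

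The lung epithelium holds an alveolar and an airway part. In alveoli, type 2 cells make surfactant and can give rise to type 1 cells, the flat cells of gas exchange. In airways, club cells secrete secretoglobins and metabolise foreign compounds, multiciliated cells move mucus, goblet cells make mucins and basal cells renew the others. An air-liquid interface culture exposes the apical side of such cells to air, which is the usual way to let airway cells differentiate on a membrane.

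The 16 libraries held 32323375 to 39081663 counts assigned to genes. Levels are given as counts-per-million (CPM), a gene's counts scaled to one library size common to all libraries, after the library totals were adjusted by a factor from the trimmed mean of M values (TMM), which was 0.747 to 0.78 in fresh libraries and 1.04 to 1.1 in day 4 libraries. The 10 genes with the most counts took 23.4% to 23.9% of a fresh library and 8.33% to 9.94% of a day 4 library. The experiment was a term of the fit. Of the day 4 libraries, the first of experiment C stood apart from its 2 partners, with a chi-square per degree of freedom of 65.7 and 60.5 against 8.83 between those 2. Of 174 genes given below with values, it was the highest day 4 library for 62 and the lowest for 38, and so an end of the printed range. The cells are labelled airway epithelial cells, but the most abundant genes of the fresh libraries included those of both club cells and alveolar type 2 cells, so the label does not cover all of the cells. In such bulk libraries fewer cells of a type and less RNA per cell cannot be told apart.

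Most of the transcriptome differed between day 4 culture and fresh cells. Of 18302 genes tested with edgeR's quasi-likelihood test, 14012 (76.6%) passed a Benjamini-Hochberg adjusted p of 0.05, with 7108 higher (38.8%) and 6904 lower (37.7%) in the cultures. All 7 day 4 libraries lay above all 3 fresh libraries for 6227 genes (34.0%) and below them for 5842 (31.9%). Because a p that misses the threshold does not show that a level was kept, each gene was also placed by the 95% interval of its log2 difference. A gene is called kept where the interval lay within -1 and 1, lost where it lay wholly below -1, gained where it lay wholly above 1, and unresolved otherwise. By this rule 8256 genes (45.1%) were kept, 2907 (15.9%) lost, 1746 (9.54%) gained and 5393 (29.5%) unresolved. At airlift 37.9% of genes were higher and 36.7% lower than in fresh cells, and from airlift to day 4 26.9% rose and 27.7% fell; these comparisons share the fresh or the day 4 libraries with the first. Of the kept genes, 165 (0.902% of all tested) had been lost at airlift and are called regained. A further 486 genes (2.66%) had been lost at airlift, had risen again by day 4 and still lay wholly below -1, and are called part regained. The median log2 difference over all genes was 0.02. Scaling by library totals alone moved this median to 0.49 and the share of higher genes among those called from 50.7% to 69.3%, so differences near 0 depend on the scaling.

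**Figure D1:**
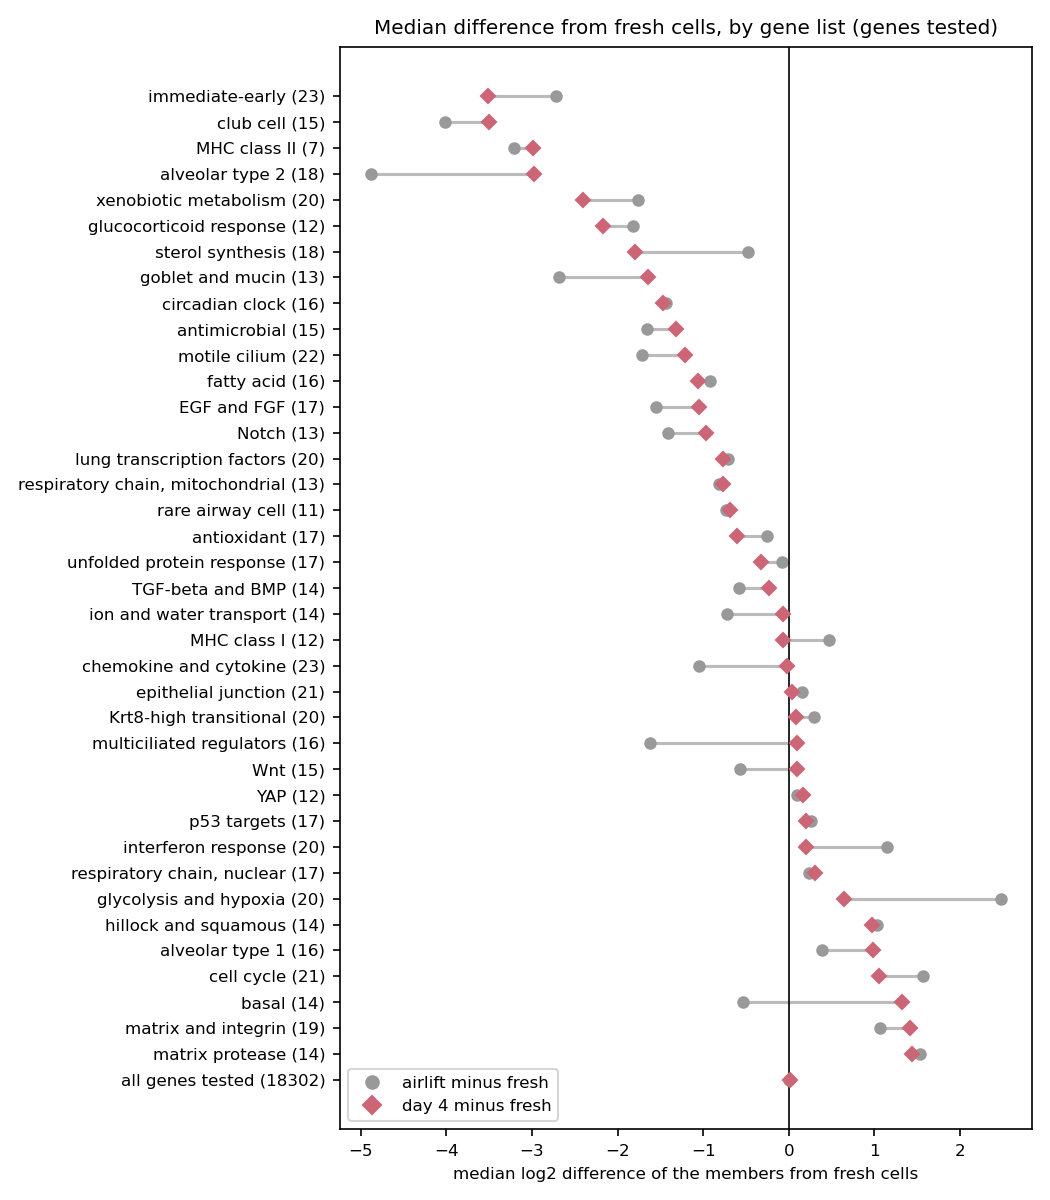
Median log2 difference from fresh cells over the tested members of each gene list, at airlift (grey circles) and at day 4 (red diamonds); the number of genes tested is in brackets. The alveolar type 2 list moved from -4.88 at airlift to -2.98 at day 4 and the multiciliated regulators from -1.62 to 0.09, while the sterol list went from -0.48 to -1.80; the median of all genes was 0.02 at day 4.

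The surfactant programme of alveolar type 2 cells was lost, and most of it was partly regained after airlift. Of the 18 genes on the list none rose, 17 fell, 16 were lost and 12 of these were part regained, where 37.7% of all genes tested fell and 15.9% were lost, with a median log2 difference of -2.98. The genes of the list took 8.24% to 10.5% of the counts of a fresh library and 1.14% to 1.68% of a day 4 library. Much of the day 4 share was Lyz2, which macrophages make too. Lyz2 alone took 1.36% to 1.81% of a fresh library and 0.547% to 1.13% of a day 4 library. Sftpc, surfactant protein C, stood at 72603, 62764 and 52239 CPM in the fresh libraries of experiments A, B and C, at 486 to 645 CPM at airlift and at 1866 to 2537 CPM (median 2090) at day 4. The groups did not overlap, and the log2 difference of day 4 from fresh was -4.84 ± 0.11 (standard error, SE, here and below) with an edgeR adjusted p of 3.6e-17. It had been -6.75 at airlift, so the cultures lay between the airlift and the fresh level.

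The other surfactant genes took different courses. Slc34a2, the phosphate transporter of type 2 cells, went from 1219, 1385 and 1570 CPM in fresh cells to 10.2 to 16.5 CPM at airlift and 169 to 208 CPM (median 189) at day 4. The 3 stages did not overlap, with a log2 difference from fresh of -6.86 at airlift and -2.90 ± 0.09 at day 4 (edgeR adjusted p = 2.7e-15). Egfl6, an EGF-like secreted protein, had a log2 difference of -5.97 at airlift and -1.43 ± 0.13 at day 4, and Lpcat1, the enzyme that remodels surfactant phosphatidylcholine, of -3.67 and -1.60 ± 0.06. Sftpa1, surfactant protein A, did not come back: it stood at 13236, 12700 and 10779 CPM in fresh cells, 50.6 to 84.7 CPM at airlift and 33.8 to 87.8 CPM (median 81) at day 4. Its day 4 level differed from fresh by -7.39 ± 0.18 (edgeR adjusted p = 1.7e-16) and from airlift by 0.10 (adjusted p = 0.57). Sftpb fell by 4.45 ± 0.10, and the lipid transporter of lamellar bodies, Abca3, by 3.05 ± 0.08, on the log2 scale. Among the transcription factors, Etv5 fell by 2.86 ± 0.06 and Cebpa by 2.71 ± 0.07.

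Lyz2, a lysozyme made by both type 2 cells and macrophages, stood at 24284, 20612 and 17478 CPM in fresh cells and 4980 to 10767 CPM (median 8323) at day 4, with no overlap and a log2 difference of -1.32 ± 0.16. The macrophage markers, summed without Lyz2, ranged from 1401 to 1579 CPM in fresh libraries and from 1145 to 2222 CPM in day 4 libraries, with the first library of experiment C lowest for both. The part of macrophage transcripts in the level of Lyz2 was not tested. Fabp5, a fatty acid binding protein of both cell types, was the 1 regained gene of the list, at 402, 318 and 311 CPM in fresh cells and 151 to 330.0 CPM (median 301) at day 4, and its groups overlapped. Its call was not stable: it passed the test as lower in 10 of 24 alternatives, among them DESeq2's size factors and the fit without the first library of experiment C.

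Type 1 cell genes rose more often than they fell. Of 16 genes, 10 rose and 3 fell, 7 were gained, 5 kept and 2 lost, with a median log2 difference of 0.98. Of all genes tested 38.8% rose, 37.7% fell, 9.54% were gained, 45.1% kept and 15.9% lost. Ager, the receptor RAGE that marks type 1 cells, stood at 1044, 904 and 762 CPM in fresh cells, at 300.2 to 469.5 CPM at airlift and at 822 to 1078 CPM (median 888) at day 4. Fresh and day 4 levels overlapped and both lay above airlift, with a log2 difference from fresh of 0.02 ± 0.12 (edgeR adjusted p = 0.88), so the gene counts as regained. With library totals alone as scaling Ager passed the test as higher. Rtkn2 was regained as well, at 24.4, 16.8 and 13.2 CPM in fresh cells, 0.986 to 2.31 CPM at airlift and 13.2 to 34 CPM (median 18.3) at day 4.

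The gained type 1 genes included a claudin and basement membrane collagens. Cldn18, the alveolar claudin, rose from 387, 342 and 299 CPM to 963 to 1144 CPM (median 1064), with no overlap and a log2 difference of 1.63 ± 0.09 (edgeR adjusted p = 4.8e-12). Akap5, an anchoring protein for protein kinase A, rose by 3.70 ± 0.18, Col4a3 by 2.11 ± 0.18, Col4a4 by 2.13 ± 0.17 and Clic5 by 1.56 ± 0.06, on the log2 scale. Pdpn, podoplanin, was lower at airlift (-0.80) and higher at day 4 (1.21 ± 0.12) than in fresh cells. Spock2 and Igfbp2 were lost, with log2 differences of -3.23 ± 0.15 and -4.21 ± 0.21.

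**Figure D2:**
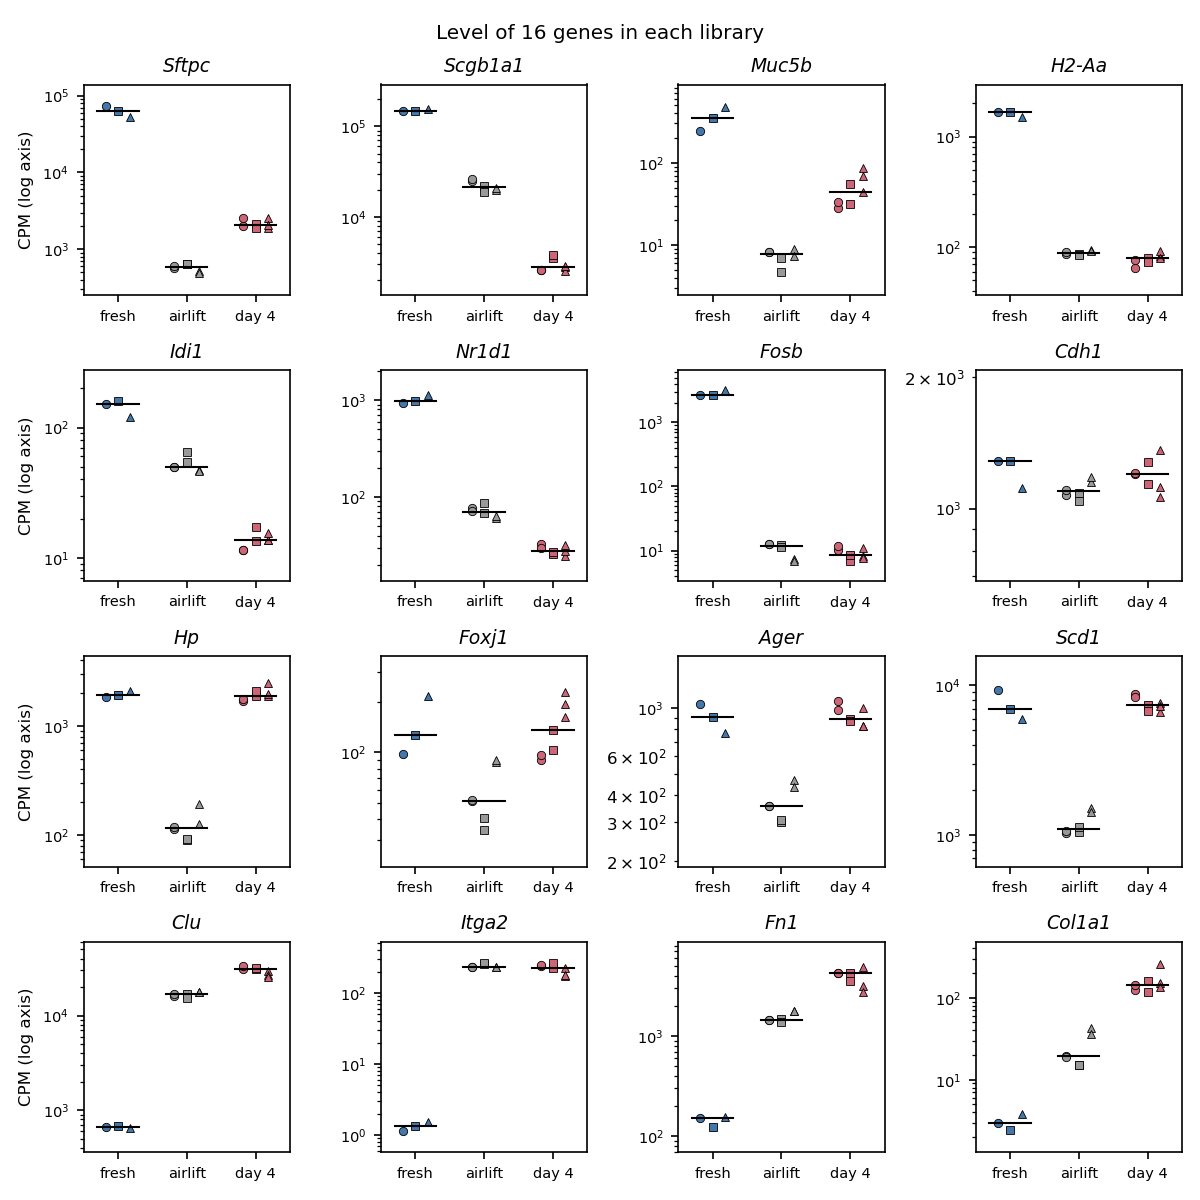
Level of 16 genes in every library in CPM on log axes, with fresh libraries in blue, airlift libraries in grey and day 4 libraries in red; circles, squares and triangles stand for experiments A, B and C and bars for the median. Sftpc, Muc5b, Ager, Hp, Foxj1 and Scd1 were lower at airlift than in both other stages, while Scgb1a1, Idi1 and Nr1d1 were lower at day 4 than at airlift.

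Club cell products were lost, and the main secretoglobin went on falling after airlift. Of 15 genes none rose and 14 fell, 12 were lost and 1 was regained, with a median log2 difference of -3.50. Over all genes 37.7% fell, 15.9% were lost and 0.902% regained. Scgb1a1, the secretoglobin that defines club cells, stood at 148018, 149360 and 157609 CPM in fresh cells, 18994 to 26169 CPM at airlift and 2510 to 3801 CPM (median 2777) at day 4. No stages overlapped, and the log2 difference from fresh was -2.77 at airlift and -5.68 ± 0.12 at day 4 (edgeR adjusted p = 2.4e-17). Scgb3a1 likewise went from -3.56 at airlift to -5.18 ± 0.22. A second secretoglobin, Scgb3a2, took the other course: 1539, 1938 and 2471 CPM in fresh cells, 4.73 to 14.5 CPM at airlift and 18 to 99.8 CPM (median 49.4) at day 4. No stages overlapped, and the log2 difference from fresh was -8.15 at airlift and -5.50 ± 0.21 at day 4.

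Hp, haptoglobin, a haemoglobin-binding acute phase protein, was the regained gene of this list. It stood at 1840, 1929 and 2089 CPM in fresh cells, at 90.6 to 193 CPM at airlift and at 1709 to 2483 CPM (median 1896) at day 4. Fresh and day 4 levels overlapped, with a log2 difference of -0.02 ± 0.14 (edgeR adjusted p = 0.91).

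The enzymes that club cells use on foreign compounds fell with them. Of 20 xenobiotic genes tested 1 rose and 17 fell, 13 were lost and 4 kept, with a median log2 difference of -2.41. Over all genes 38.8% rose, 37.7% fell, 15.9% were lost and 45.1% kept. Cyp2f2, the cytochrome P450 most used as a club cell marker, stood at 7900, 9329 and 10475 CPM in fresh cells, 73.5 to 161 CPM at airlift and 366 to 928 CPM (median 556) at day 4. It was part regained, with log2 differences of -6.39 and -4.09 ± 0.16 (edgeR adjusted p = 5.8e-14 at day 4). Cyp4b1 fell by 4.20 ± 0.08, Ces1d, a carboxylesterase, by 3.40 ± 0.12 and Aldh1a1, a retinal dehydrogenase, by 2.60 ± 0.08. Por, the reductase that passes electrons to the P450 enzymes, had a log2 difference of -0.36 at airlift and -1.27 ± 0.07 at day 4. Cyp1b1, an aryl hydrocarbon receptor target, was the gene that rose, by 2.60 ± 0.11.

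Goblet cell products were lower, and the gel-forming mucins were part regained. Of 13 genes 2 rose and 9 fell, where 38.8% of all genes rose and 37.7% fell. Muc5b, the main mucin of healthy mouse airways, stood at 246, 345 and 472 CPM in fresh cells, 4.65 to 9.07 CPM at airlift and 28.4 to 86.8 CPM (median 44.4) at day 4. The stages did not overlap, and the log2 difference from fresh was -2.91 ± 0.20 (edgeR adjusted p = 2.2e-10). Muc5ac showed the same order at low level, with 9.63, 10.4 and 14.4 CPM in fresh cells, 0.603 to 1.15 CPM at airlift and 2.13 to 5.31 CPM (median 3.48) at day 4. Its log2 difference at day 4 was -1.65 ± 0.18 (edgeR adjusted p = 1.8e-07). Clca1 and the trefoil factor Tff2 fell by 7.47 ± 0.21 and 6.38 ± 0.17. The membrane mucins Muc4 and Muc16 were the members that rose, by 1.20 ± 0.15 and 1.67 ± 0.33, both unresolved by their intervals.

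Among multiciliated cell genes, regulators and structural genes of the motile cilium are given apart, and the difference between the lists was not tested. Of 16 regulators 6 rose, 6 fell, 7 were kept, 3 of them regained, and 2 were gained, close to the shares over all genes (38.8% higher, 37.7% lower, 45.1% kept and 9.54% gained); with library totals alone as scaling 9 rose and 3 fell. Foxj1, the transcription factor that turns on ciliary genes, stood at 97.9, 127 and 217 CPM in fresh cells, 34.5 to 90 CPM at airlift and 90.6 to 228 CPM (median 136) at day 4. Fresh and day 4 libraries overlapped, with a log2 difference of -0.11 ± 0.14 (edgeR adjusted p = 0.47). Ccno, a cyclin needed to multiply centrioles, went from 22.5, 24 and 24.7 CPM in fresh cells to 0.963 to 2.8 CPM at airlift and 13.8 to 50.5 CPM (median 25.8) at day 4, a log2 difference of -4.06 at airlift and 0.06 ± 0.24 at day 4. Myb was also regained, with -1.77 and 0.19 ± 0.22.

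Mcidas, the multicilin that starts the multiciliated programme, was gained: 0.978, 0.49 and 0.959 CPM in fresh cells, 0 to 0.811 CPM at airlift and 3.04 to 20.2 CPM (median 8.53) at day 4. All day 4 libraries lay above the fresh ones, with a log2 difference of 3.39 ± 0.45 (edgeR adjusted p = 1.9e-06), at levels of only a few CPM. Foxn4, which acts beside it, was gained, from 0.435, 0.35 and 1.64 CPM to 1.11 to 8.59 CPM (median 2.84), with overlap between the groups. The deuterosome genes Deup1 and Cdc20b, which serve centriole production, rose by 1.43 ± 0.30 and 1.52 ± 0.40, both unresolved and with overlap between the groups. Gmnc, the geminin relative upstream of multicilin, was part regained (-3.86 at airlift, -1.70 ± 0.27 at day 4), and Rfx2, a factor for ciliary genes, fell from -1.56 to -2.18 ± 0.08.

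All 22 motile cilium genes fell, 12 were lost, 1 was kept and none was regained, with a median log2 difference of -1.21. Over all genes 37.7% fell, 15.9% were lost and 45.1% kept. Hydin, a protein of the central pair of microtubules, stood at 26.9, 31 and 47.1 CPM in fresh cells and 6.12 to 15.6 CPM (median 9.92) at day 4. The groups did not overlap, with a log2 difference of -1.87 ± 0.16 (edgeR adjusted p = 5.3e-09). Cfap43 fell by 2.16 ± 0.10, Tppp3 by 1.93 ± 0.10 and the dynein intermediate chain Dnai1 by 1.46 ± 0.11. Cfap126, the kept member, fell by 0.52 ± 0.10. For 8 of the 22 genes the day 4 level was part regained. The day 4 sums of all 22 genes ranged from 246 to 555 CPM, lowest in experiment A and highest in the first library of experiment C, against 793 to 1263 CPM in fresh cells.

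**Figure D3:**
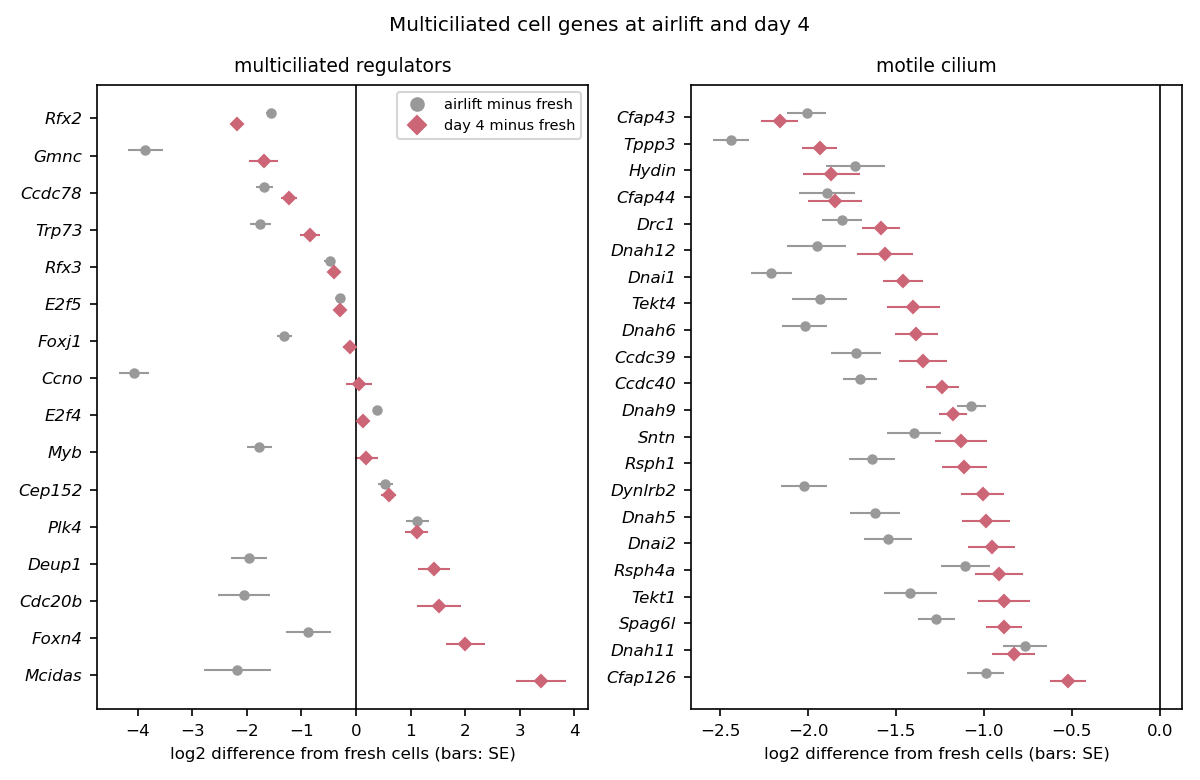
Log2 difference from fresh cells with its SE for the 16 multiciliated regulators (left) and the 22 motile cilium genes (right), at airlift (grey circles) and day 4 (red diamonds). Among regulators Foxj1, Ccno and Myb returned to near 0 and Mcidas, Foxn4, Cdc20b and Deup1 passed it, while all cilium genes stayed below 0.

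Basal cell markers rose from low fresh levels. Of 14 genes 11 rose, none fell, 7 were gained and 6 unresolved, with a median of 1.32 at day 4 and -0.54 at airlift. Over all genes 38.8% rose, 37.7% fell, 9.54% were gained and 29.5% unresolved. Krt5, the basal keratin, stood at 14.1, 42.9 and 48.5 CPM in fresh cells, 2.57 to 18 CPM at airlift and 39.2 to 167 CPM (median 105) at day 4. The fresh and day 4 groups overlapped by 1 day 4 library, the first of experiment A, and the log2 difference was 1.49 ± 0.45 (edgeR adjusted p = 0.006). Trp63, the basal transcription factor p63, stood at 0.362, 2.03 and 4.38 CPM in fresh cells and 4.3 to 15.2 CPM (median 9.05) at day 4. These groups overlapped narrowly too, with a log2 difference of 2.03 ± 0.38 (edgeR adjusted p = 8.3e-05). Krt14 rose by 4.38 ± 0.56, with no count in 1 fresh library, Col17a1, a hemidesmosome collagen, by 2.29 ± 0.33 and Krt17 by 1.79 ± 0.34. Of the squamous and hillock genes, which mark layered epithelia and their precursors, 8 of 14 rose and 3 fell, where 38.8% of all genes rose and 37.7% fell. Sprr1a, a cornified envelope protein, rose by 2.88 ± 0.22 and Ecm1 by 3.70 ± 0.16. Another envelope protein, involucrin (Ivl), was regained (-4.44 at airlift, 0.21 ± 0.14 at day 4).

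Genes of the Krt8-high transitional state, which cells pass through on the way from type 2 to type 1 in repair, rose in 9 of 20 cases and fell in 8, near the shares over all genes (38.8% and 37.7%), and with library totals alone in 13 and 7. Itga2, the collagen-binding integrin chain, stood at 1.12, 1.33 and 1.51 CPM in fresh cells and 176 to 267 CPM (median 228) at day 4. The groups lay far apart, with a log2 difference of 7.41 ± 0.15 (edgeR adjusted p = 1.3e-17). Fn1, fibronectin, rose from 150.2, 124 and 154 CPM to 2766 to 4855 CPM (median 4242), a log2 difference of 4.77 ± 0.18, and Krt7 rose by 2.06 ± 0.09. Krt8 itself fell: it stood at 3052, 3020 and 2716 CPM in fresh cells and 1336 to 1726 CPM (median 1570) at day 4. No libraries overlapped, with a log2 difference of -0.89 ± 0.07 (edgeR adjusted p = 1.0e-09). Gdf15 fell by 2.82 ± 0.15, Hbegf by 1.83 ± 0.06 and Areg by 1.46 ± 0.09, all growth factors.

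Epithelial junction genes were mostly kept. Of 21 genes 16 (against 45.1% of all genes) were kept, 1 gained and 1 lost, while 9 passed the test as higher and 5 as lower; with library totals alone as scaling 17 were higher and 2 lower. Cdh1, E-cadherin, stood at 1287, 1285 and 1113 CPM in fresh cells and 1064 to 1363 CPM (median 1200) at day 4. The groups overlapped, with a log2 difference of -0.04 ± 0.08 (edgeR adjusted p = 0.65). Epcam, the protein used to select the cells, stood at 259.9, 234 and 226 CPM and 351 to 456 CPM (median 436). It was higher in every day 4 library, by 0.80 ± 0.07 (edgeR adjusted p = 1.3e-08), and counts as kept. Cldn1 was the lost junction gene, at -3.02 ± 0.12.

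Lung transcription factors fell more often than they rose, 13 against 4 of 20, with 9 kept and 8 lost. Of all genes 37.7% fell, 38.8% rose, 45.1% were kept and 15.9% lost. With library totals alone 11 of the factors were lower and 8 higher. Nkx2-1, the factor that sets lung identity, stood at 134, 137 and 160.3 CPM in fresh cells and 173 to 259.9 CPM (median 225) at day 4. The day 4 libraries all lay above the fresh ones, by 0.61 ± 0.10 (edgeR adjusted p = 3.8e-05), within the bounds of a kept gene. Elf5 fell by 3.33 ± 0.10, Klf5 by 2.40 ± 0.08, Foxp1 by 1.97 ± 0.05 and Foxa1, a pioneer factor, by 1.30 ± 0.05. Among 14 ion and water transport genes 7 rose and 5 fell, where 38.8% of all genes rose and 37.7% fell. Cftr, the chloride channel mutated in cystic fibrosis, fell by 2.64 ± 0.13, while Ano1, a calcium-activated chloride channel, rose by 2.99 ± 0.10 and the water channel Aqp4 by 2.48 ± 0.13. Slc26a4, pendrin, was regained (-3.42 at airlift, -0.33 ± 0.20 at day 4).

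**Figure D4:**
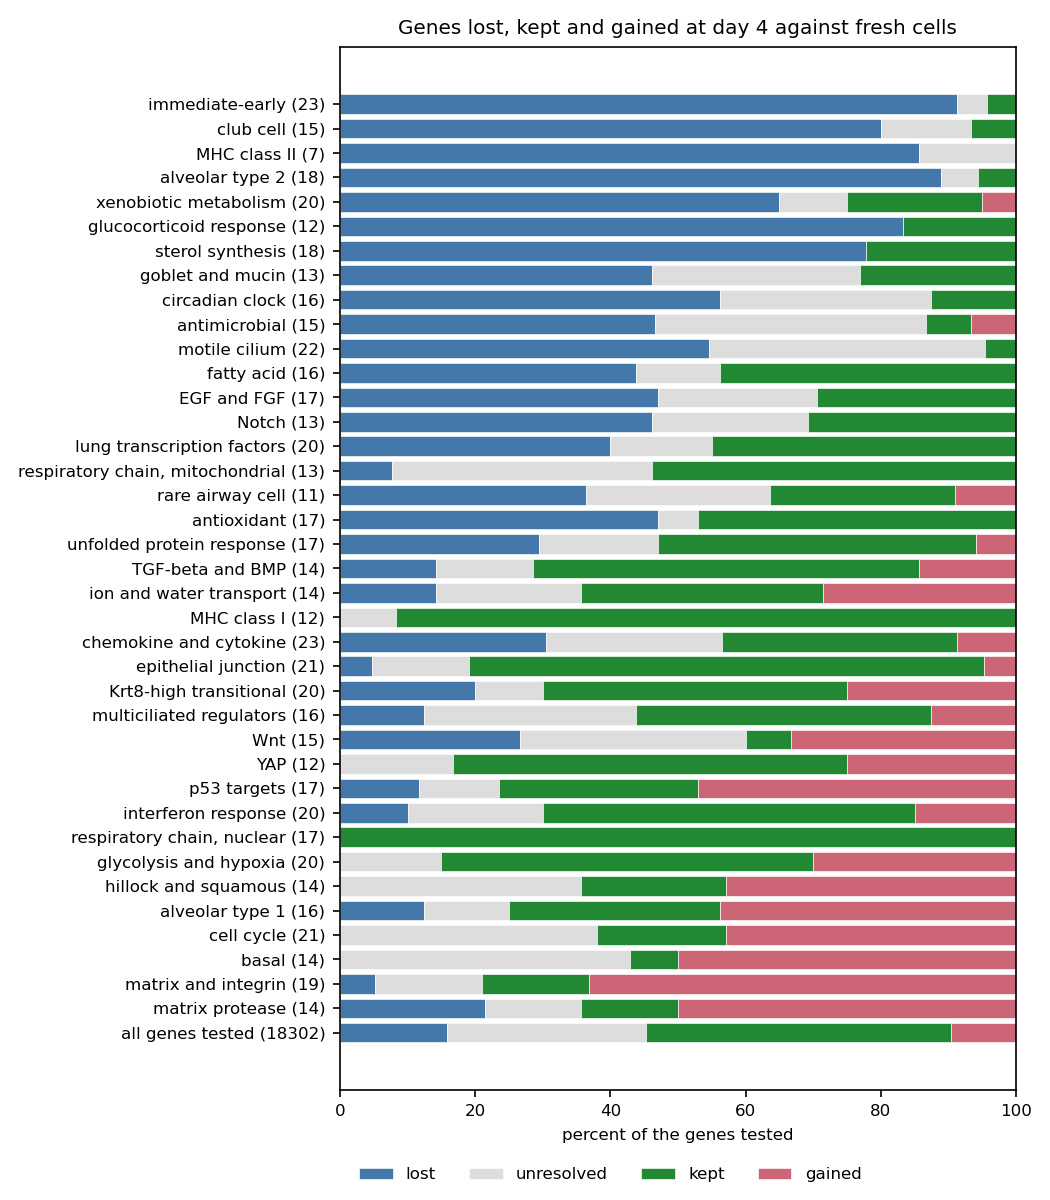
Share of the tested genes of each list that were lost, unresolved, kept or gained at day 4 against fresh cells, by the 95% interval of the log2 difference against -1 and 1; the number tested is in brackets and lists are ordered by their median. All genes tested, at the bottom, were 15.9% lost, 45.1% kept and 9.54% gained; immediate-early genes were lost in 21 of 23 cases and nuclear respiratory chain genes kept in 17 of 17.

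Transcripts of MHC class II antigen presentation, which type 2 cells among others carry in the mouse lung, were mostly lost. All 7 genes fell and 6 were lost, where 37.7% of all genes fell and 15.9% were lost. H2-Aa stood at 1677, 1655 and 1497 CPM in fresh cells and 64.8 to 91.6 CPM (median 78.9) at day 4. The groups did not overlap, with a log2 difference of -4.38 ± 0.07 (edgeR adjusted p = 1.4e-18). Cd74, the invariant chain, fell by 2.98 ± 0.06, and Ciita, the transactivator of the class, by 1.03 ± 0.16. B cells, macrophages and dendritic cells carry these genes too. The dendritic cell lectins Cd207 and Mgl2 went from 53.5, 65.4 and 57.7 CPM and 38, 55.7 and 39.7 CPM to at most 0.388 and 0.443 CPM at day 4. Of 12 lymphocyte markers 11 fell, their sum going from 293 to 519 CPM in fresh libraries to 144 to 269 CPM at day 4, and the part of these cells in the fall was not tested. Of the 12 class I genes 11 were kept. Interferon response genes were 11 of 20 kept, 9 higher and 5 lower, against 45.1%, 38.8% and 37.7% of all genes, and with library totals alone 15 were higher and 3 lower. Their median was 1.15 at airlift and 0.21 at day 4.

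Secreted defence proteins mostly fell. Of 15 antimicrobial genes 11 fell and 2 rose. Chi3l1, a chitinase-like protein, fell from 3383, 3135 and 2792 CPM to 96.3 to 188 CPM (median 139), with no overlap and a log2 difference of -4.44 ± 0.11 (edgeR adjusted p = 2.2e-16). Lcn2, lipocalin 2, which binds bacterial siderophores, stood at 429, 436 and 415 CPM in fresh cells, 39 to 80.3 CPM at airlift and 90.3 to 199 CPM (median 172) at day 4. It was part regained, with a log2 difference of -1.62 ± 0.17 (edgeR adjusted p = 5.4e-08). Complement factor B (Cfb) was gained, by 2.10 ± 0.18. Among 23 chemokine and cytokine genes 8 rose and 8 fell, near the shares over all genes (38.8% and 37.7%), and with library totals alone 13 were higher and 7 lower. The neutrophil attractant Cxcl1 went from 54.7, 67 and 43.8 CPM to 2.7 to 7.27 CPM (median 3.57), without overlap, a log2 difference of -3.68 ± 0.24 (edgeR adjusted p = 9.7e-11). Its relatives differed: Cxcl2 fell by 3.64 ± 0.20 and Cxcl15, the lung chemokine of type 2 and airway cells, by 5.16 ± 0.11, while Cxcl3 rose by 2.04 ± 0.20 and Cxcl5 by 1.20 ± 0.12.

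Immediate-early genes, which respond within minutes to handling and growth signals, were high in fresh cells and low in culture. All 23 genes fell and 21 were lost, where 37.7% of all genes fell and 15.9% were lost. Their median log2 difference was -3.52, the lowest of the lists in the plot of list medians. Fos stood at 761, 766 and 1270 CPM in fresh cells and 24.4 to 32.7 CPM (median 25.7) at day 4. The groups did not overlap, with a log2 difference of -5.09 ± 0.11 (edgeR adjusted p = 3.7e-17). Fosb fell by 8.27 ± 0.17, the nuclear receptor Nr4a1 by 5.12 ± 0.13, Atf3 by 4.58 ± 0.12 and Klf4 by 4.62 ± 0.09. At airlift 22 of the 23 were lower than in fresh cells, with a median of -2.72. The fall was larger in experiment C than in experiment A for 21 of the 23 genes, and 3 of them, Btg2, Jun and Ier2, passed the test for a difference between experiments.

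The bases before the start of the genes in such lists hold known short motifs, and those of 4 members are shown because the genes of their lists fell together. Promoters came from RefSeq on build GRCm38.p6, which is not the build of the counts, as the 250 bases before the gene's start, written 5′ to 3′ on the gene's strand. Capitals mark TGACG, the shared part of the sites of cyclic AMP and stress responsive factors, in Fos and Nr4a1, and CCAAT, the box bound by NF-Y, in the sterol genes Idi1 and Cyp51, in either case on either strand (CGTCA and ATTGG on the other). The regions are chr12:85473640-85473889 on the plus strand for Fos, chr15:101266596-101266845 plus for Nr4a1, chr13:8885356-8885605 plus for Idi1 and chr5:4104698-4104947 minus for Cyp51.
Fos: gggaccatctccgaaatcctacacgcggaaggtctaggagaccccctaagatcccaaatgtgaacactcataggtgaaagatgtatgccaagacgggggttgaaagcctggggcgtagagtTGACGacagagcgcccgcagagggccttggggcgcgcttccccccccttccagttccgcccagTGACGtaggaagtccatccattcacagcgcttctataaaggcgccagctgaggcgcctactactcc
Nr4a1: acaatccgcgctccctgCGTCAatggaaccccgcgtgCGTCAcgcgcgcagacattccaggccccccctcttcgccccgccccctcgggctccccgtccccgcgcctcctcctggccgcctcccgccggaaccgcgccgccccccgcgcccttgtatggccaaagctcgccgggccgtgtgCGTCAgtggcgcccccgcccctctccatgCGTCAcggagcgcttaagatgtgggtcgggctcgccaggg
Idi1: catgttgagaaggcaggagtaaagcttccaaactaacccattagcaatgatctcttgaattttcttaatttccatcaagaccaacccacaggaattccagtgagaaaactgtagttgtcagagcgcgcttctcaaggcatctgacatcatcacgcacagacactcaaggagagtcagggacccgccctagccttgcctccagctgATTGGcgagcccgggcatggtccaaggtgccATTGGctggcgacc
Cyp51: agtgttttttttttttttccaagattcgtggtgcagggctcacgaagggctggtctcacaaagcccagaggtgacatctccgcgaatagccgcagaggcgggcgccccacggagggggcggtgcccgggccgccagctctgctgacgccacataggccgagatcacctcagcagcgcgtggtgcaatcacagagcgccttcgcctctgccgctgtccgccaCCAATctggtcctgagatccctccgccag
Of the 20 immediate-early promoters that RefSeq gave, 11 held TGACG (55%), against 24.2% of 13455 promoters of genes tested. Of 12 sterol promoters 11 held CCAAT (91.7%), against 35%. Neither motif was confined to its list. CCAAT was in 9 of 13 circadian clock promoters (69.2%) and 7 of 20 immediate-early ones (35%). TGACG was in 5 of 12 sterol promoters (41.7%) and 4 of 13 circadian clock ones (30.8%). TCACNCCAC, one form of the sterol regulatory element, was found in 1 of 12 (Hmgcs1), and in 0.988% of all. A match is a run of letters and was not tested as a site.

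Sterol synthesis genes fell by airlift and again after it, when 17 of the 18 were lower at day 4 than at airlift. Against fresh cells, of 18 genes 17 fell, none rose and 14 were lost, with a median of -0.48 at airlift and -1.80 at day 4. Over all genes 37.7% fell and 15.9% were lost against fresh cells, and 27.7% were lower at day 4 than at airlift. Idi1, the isomerase of the isoprenoid precursors, stood at 151, 161 and 121 CPM in fresh cells, 46.4 to 65.1 CPM at airlift and 11.4 to 17.2 CPM (median 13.7) at day 4. No stages overlapped, and the log2 difference from fresh was -1.47 at airlift and -3.38 ± 0.09 at day 4 (edgeR adjusted p = 6.2e-16). Cyp51, lanosterol demethylase, went from 265, 261 and 205 CPM in fresh cells to 122 to 179 CPM at airlift and 41.3 to 48 CPM (median 43.8) at day 4. The stages did not overlap, with log2 differences of -0.72 and -2.42 ± 0.08. Insig1, the feedback protein of the pathway, fell by 3.60 ± 0.07 and Hmgcs1, the synthase at the head of the mevalonate route, by 2.71 ± 0.05. Dhcr7, which makes cholesterol in the last step, did not pass the test, with 0.19 ± 0.10 and an edgeR adjusted p of 0.094.

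Fatty acid genes fell in 9 of 16 cases and rose in 3, with 1 regained, where 37.7% of all genes fell and 38.8% rose; with library totals alone 9 were lower and 7 higher. Scd1, the stearoyl-CoA desaturase, stood at 9373, 6942 and 5987 CPM in fresh cells, 1034 to 1520 CPM at airlift and 6598 to 8780 CPM (median 7395) at day 4. Fresh and day 4 levels overlapped, with a log2 difference of 0.02 ± 0.13 (edgeR adjusted p = 0.89), though with library totals alone Scd1 passed the test as higher. Fasn, fatty acid synthase, did not follow it: it fell by 2.96 ± 0.10, and Acly, which supplies its acetyl-CoA, by 1.89 ± 0.06.

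The circadian clock genes fell in both arms of the loop. Of 16 genes 15 fell, none rose and 9 were lost, with a median of -1.46, where 37.7% of all genes fell and 15.9% were lost. Nr1d1, the repressor REV-ERB alpha, stood at 924, 976 and 1120 CPM in fresh cells, 60.4 to 86 CPM at airlift and 24.7 to 32.7 CPM (median 27.5) at day 4. No stages overlapped, with a log2 difference of -5.14 ± 0.10 (edgeR adjusted p = 1.0e-17). Bmal1, the activator that it represses, fell as well, by 1.64 ± 0.10, as did Per1, Per2 and Cry2, by 2.84 ± 0.10, 2.57 ± 0.07 and 3.14 ± 0.07. Clock did not pass the test (0.14 ± 0.08, edgeR adjusted p = 0.13). The labels give no clock time for any library. Of 12 genes that respond to glucocorticoids 11 fell and 10 were lost, Zbtb16 by 4.06 ± 0.11 and Tsc22d3 (GILZ) by 2.16 ± 0.07. The metallothionein Mt2 had a log2 difference of -0.14 at airlift and was lost at day 4 (-2.96 ± 0.17). Per1 stands on both lists.

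**Figure D5:**
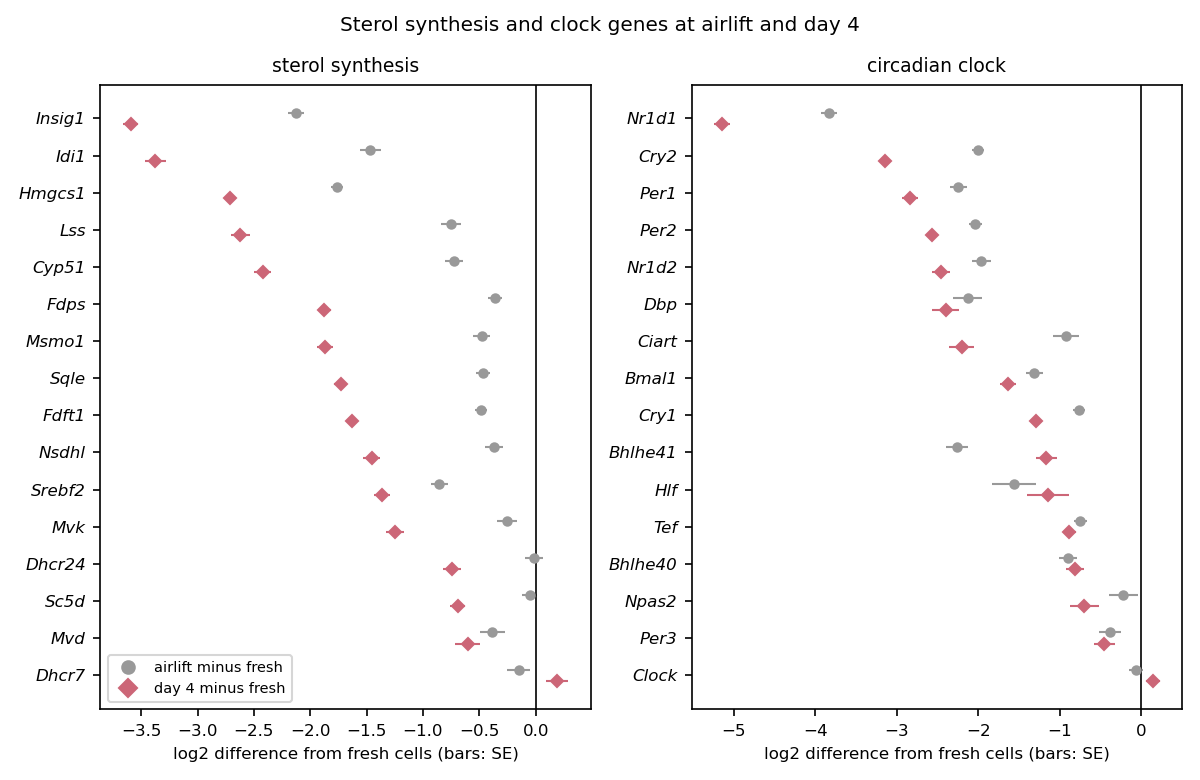
Log2 difference from fresh cells with its SE for 16 of the 18 sterol genes (left) and the 16 clock genes (right) at airlift (grey circles) and day 4 (red diamonds). Dhcr7 and Clock were the members that did not pass the test at day 4.

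Cell cycle genes were above the fresh level, and 20 of the 21 were lower than at airlift. Of 21 genes 19 rose, 2 fell and 9 were gained, with a median of 1.57 at airlift and 1.05 at day 4. Mki67, the proliferation antigen, stood at 27.5, 22.4 and 22.2 CPM in fresh cells, 60.8 to 87.2 CPM at airlift and 49.7 to 61.1 CPM (median 53.1) at day 4. The day 4 libraries lay above the fresh ones, by 1.20 ± 0.09 (edgeR adjusted p = 1.3e-09). Cyclin B1 (Ccnb1) rose by 2.47 ± 0.11, whereas Pcna, the replication clamp, fell by 0.70 ± 0.08. Of 17 p53 targets and cell cycle inhibitors 9 rose and 7 fell, where 38.8% of all genes rose and 37.7% fell. Zmat3 rose by 2.39 ± 0.08, Ccng1 by 2.18 ± 0.11 and Cdkn2a, which codes for the inhibitors p16 and p19ARF, by 3.66 ± 0.28. Sesn2 fell by 1.97 ± 0.07 and Mdm2 by 0.40 ± 0.09.

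Glycolysis and hypoxia genes stood above fresh cells by more at airlift than at day 4. Of 20 genes 15 rose and 3 fell at day 4 and 11 were kept, with a median of 2.47 at airlift and 0.64 at day 4. Over all genes 38.8% rose, 37.7% fell and 45.1% were kept. Egln3, an oxygen sensor that hypoxia itself raises, stood at 1.67, 0.875 and 1.78 CPM in fresh cells, 75 to 180.4 CPM at airlift and 22.4 to 29.9 CPM (median 25.5) at day 4, a log2 difference of 4.14 ± 0.25. Bnip3 had a log2 difference of 3.21 at airlift and 0.52 ± 0.12 at day 4. Several glycolysis genes, Gapdh, Eno1 and Pgk1 among them, have processed copies in the genome that the counting could split, so their levels are uncertain. The 17 nuclear genes of the respiratory chain were all kept, 12 of them higher and 1 lower by the test, and their median was 0.30. The 13 mitochondrial genes had a median of -0.77, with 12 lower. COX1, subunit 1 of cytochrome oxidase, stood at 13424, 14579 and 14010 CPM and 6515 to 8699 CPM (median 7536), without overlap, a log2 difference of -0.92 ± 0.07.

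Stress and antioxidant genes fell in part. Of 17 antioxidant genes 11 fell and 4 rose, where 37.7% of all genes fell and 38.8% rose. Haem oxygenase (Hmox1) fell by 2.47 ± 0.13 and catalase (Cat) by 1.76 ± 0.09, and the 4 that rose were Nqo1, Gpx3, Gsr and Gpx2. Of 17 genes of the unfolded protein and integrated stress responses 11 fell and 4 rose, though with library totals alone 9 were higher and 7 lower. Atf4 fell by 2.12 ± 0.10 and Herpud1 by 2.42 ± 0.08, and Asns, a target of ATF4, rose by 1.53 ± 0.15.

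Matrix and adhesion genes rose. Of 19 genes 17 rose, 2 fell and 12 were gained, with a median of 1.42. Over all genes 38.8% rose, 37.7% fell and 9.54% were gained. Tnc, tenascin C, a matrix protein of repair, stood at 0.869, 1.05 and 0.89 CPM in fresh cells and 117 to 311 CPM (median 162) at day 4. The groups lay far apart, with a log2 difference of 7.50 ± 0.26 (edgeR adjusted p = 1.9e-14). Itgb6, the integrin chain that activates TGF-beta, rose by 3.37 ± 0.12 and the laminin chain Lama3 by 2.28 ± 0.19, whereas thrombospondin 1 (Thbs1) fell by 1.99 ± 0.09. Among 14 proteases and inhibitors 9 rose and 4 fell, with Mmp14 higher by 3.65 ± 0.13, Timp1 by 6.01 ± 0.23 and Timp3 lower, at -2.26 ± 0.09. Col1a1, the fibrillar collagen of mesenchymal cells, rose beside them. It went from 2.97, 2.45 and 3.77 CPM in fresh cells to 116 to 255 CPM (median 142) at day 4. Among 11 mesenchymal markers 8 rose and 1, Dcn, fell, where 38.8% of all genes rose and 37.7% fell. The markers' sum was 98.0 to 109 CPM in fresh libraries and 271 to 599 CPM at day 4, highest in the first library of experiment C, where Tnc was highest too. Pdgfrb, a receptor of mesenchymal cells, rose from 0.398, 0.14 and 0.377 CPM to 0.962 to 2.09 CPM (median 1.28), and Lum, a fibroblast proteoglycan, stood at 0.0724, 0.21 and 0.205 CPM and 0.197 to 1.03 CPM (median 0.405), with overlap. The part of mesenchymal cells in the matrix genes was not tested.

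Signalling genes moved in both directions, where 38.8% of all genes tested rose and 37.7% fell. In the Wnt list 7 of 15 genes rose and 7 fell, near these shares. The ligand Wnt7a went from 2.03, 1.19 and 1.03 CPM to 45.1 to 56.5 CPM (median 47.9), a log2 difference of 5.15 ± 0.13. The feedback targets Axin2 and Notum fell by 2.69 ± 0.20 and 4.63 ± 0.19. Of 13 Notch genes 11 fell and 1 rose, with Notch1 lower by 1.46 ± 0.08 and its ligand Jag1 by 1.28 ± 0.10 on the log2 scale. Of 17 EGF and FGF genes 13 fell and 3 rose: the feedback genes Spry2 and Dusp6 fell by 2.24 ± 0.07 and 1.68 ± 0.05 and the receptor Fgfr2 by 1.89 ± 0.08, while Egfr rose by 0.85 ± 0.10. Among 12 YAP genes the target Ankrd1 rose by 5.14 ± 0.21 and Ccn2 by 2.58 ± 0.23, but Ccn1, the classical target beside it, fell by 0.99 ± 0.10.

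The gene with the most counts was Scgb1a1 in fresh cells and clusterin in the day 4 cultures. Clu, a secreted chaperone, stood at 672, 679.7 and 654 CPM in fresh cells, 15393 to 17738 CPM at airlift and 25776 to 33077 CPM (median 30827) at day 4. The stages did not overlap, with a log2 difference of 5.49 ± 0.10 (edgeR adjusted p = 1.0e-17). Lysosomal genes stood among the 10 highest at day 4: cathepsin D (Ctsd) rose from 1649, 1503 and 1680 CPM to 4639 to 8593 CPM (median 7892) and prosaposin (Psap) from 1516, 1412 and 1587 CPM to 2994 to 5475 CPM (median 4444). Both are abundant in macrophages. For both, as for the summed macrophage markers, the lowest day 4 library was the first of experiment C. Of the 15 macrophage markers 3 rose and 9 fell, where 38.8% of all genes rose and 37.7% fell. With library totals alone as scaling 5 of the markers were higher and 6 lower. Marco rose by 2.88 ± 0.20 and C1qb fell by 2.28 ± 0.13, and the part of macrophages in Ctsd and Psap was not tested.

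Among genes with the largest differences and an average log2 CPM of at least 2, beyond those above, Nrk, a kinase gene, stood at 0.0724, 0.14 and 0.0685 CPM in fresh cells and 43.9 to 73.7 CPM (median 58.8) at day 4, and Adam12, a metalloprotease, at 0.0724, 0.14 and 0.137 CPM and 28 to 53.1 CPM (median 34.2). Both were far above every fresh library, with log2 differences of 9.27 ± 0.24 and 8.16 ± 0.24. Ctse, cathepsin E, rose by 6.56 ± 0.20 and was already high at airlift (6.03). Cym, chymosin, a pepsin-like protease, was low at airlift (0.29 to 2.16 CPM) and stood at 59 to 104 CPM (median 84.4) at day 4, against 0.362, 0.315 and 0.308 CPM in fresh cells, so it rose after airlift. Rgs5 did likewise, with 0.0498 to 0.295 CPM at airlift and 4.75 to 17 CPM (median 11.4) at day 4. At the other end Iqcn fell by 8.38 ± 0.17 and Pon1, paraoxonase 1, by 8.07 ± 0.19, and Cd207 and Mgl2 by 8.38 ± 0.30 and 7.44 ± 0.26. Beyond Hp, Scd1, Ccno, Rtkn2, Ivl and Slc26a4, the regained genes with the largest fall at airlift, at the same limit on level, were Itm2a, Lgi2, Tinag and Cox6b2, with log2 differences at day 4 of 0.08 ± 0.14, 0.12 ± 0.18, 0.33 ± 0.14 and -0.30 ± 0.16.

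Markers of other cell types were present in both groups. Their counts stand beside 38.8% of all genes tested that rose and 37.7% that fell. Endothelial markers fell in 11 of 12 cases, Pecam1 from 16.2, 18.9 and 16.1 CPM to 0.761 to 2.57 CPM (median 1.53), and neutrophil markers in 5 of the 6 tested. The mesothelial marker Msln rose from 11.7, 25.2 and 49.5 CPM to 494 to 721 CPM (median 620.2), a log2 difference of 4.46 ± 0.30, while of the 6 mesothelial markers tested 3 rose and 2 fell.

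Few genes passed a test for a difference between the 3 experiments, and their number depended on the method. edgeR's test of the group by experiment interaction called 24 of 18302 genes (0.131%), and 1751 genes (9.57%) had an unadjusted p under 0.05; with 1 fresh library in each experiment the spread came from the airlift and day 4 libraries. DESeq2's likelihood ratio test called 709 genes, and edgeR called 398 without a filter on low counts and 0 on fresh and day 4 libraries alone, where 1101 of 17724 genes had an unadjusted p under 0.05. Dnajb1, a heat shock co-chaperone, had a log2 difference of -1.28, -1.67 and -2.55 in experiments A, B and C (edgeR adjusted p for the difference = 0.0013), with fresh levels of 214, 306 and 549 CPM and day 4 levels of 85 to 99.2 CPM (median 92.7). Txnip, a glucose-responsive regulator, had -1.32, -1.18 and -2.62 (edgeR adjusted p = 0.0016) and Btg2, an immediate-early gene, -0.40, -0.61 and -1.57 (adjusted p = 0.0016). Pdk4 had -1.41, -1.37 and -2.59 (edgeR adjusted p = 0.0037) and Acot2 0.17, -0.79 and -1.91 (adjusted p = 0.0046). For all 5 the fall was largest in experiment C, whose fresh library was the highest of the 3.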

How the data were processed

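The authors deposited 1 table of raw counts per gene for each library, made from bulk RNA sequencing of mouse lung epithelial cells. Per the submitters' processing notes, STAR and DESeq2 were used with GRCm39. The sources used here do not give the counter, its strand setting or versions. Each table held 41098 lines, of which 25 were broken and removed, which left 41073 genes; Ttn, Neb, Huwe1, Dst, Mycbp2 and Syne1 were left out with them. Even numbers made up 69.3% to 74.7% of counts below 20, so low counts may be uneven in unit; dividing all counts by 2 is one of the alternatives.

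Counts were analysed in R 4.3.3 with edgeR 4.0.16 (filterByExpr with a minimum count of 10, TMM, quasi-likelihood, group plus experiment) on 16 libraries. This left 18302 genes, and 22771 were below the filter. The adjusted p threshold was 0.05 (Benjamini-Hochberg) and the SE is the log2 difference divided by the root of F. Experiments A, B and C, each with its own fresh cells, are the batch the labels give and form the block. Simulated counts for 17588 genes were drawn from the fitted model, with airlift set equal to fresh and all but few genes unchanged. There the test called 78.8% of genes changed by 1 and 91.9% of those changed by 2 on the log2 scale. It called 3 of 17390 unchanged genes, and the interval rule kept 86.5% of the unchanged. In the data 76.6% of genes were called, so these rates do not give the error rates of the test or the interval rule there.

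The 45 lists hold 673 genes, of which 652 were tested. Members and lists were chosen with earlier results of these data known. Named are 15 set genes, up to 4 members per list and direction with the smallest p, up to 4 kept or regained members with the highest CPM, the 10 largest differences in each direction among those that passed the test, agreed in sign over the 3 experiments and had a mean log2 CPM not below 2, the 10 genes with the most counts, the 10 regained genes with the largest fall at airlift under the same limit on level, the 5 genes that differed most between experiments and markers of other cell types; not all of these are printed, and 2 members of the sterol list are counted but not reported here. Further list members, such as Scgb3a2, Slc34a2, Egfl6, Nr4a1, Cyp51 and Bmal1, were added after their values were seen. Alternatives were DESeq2 1.42.0, limma 3.58.1 (voom with sample weights), other scalings, filters, sets of libraries and interval bounds.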

Additional observations from a re-analysis of the deposited data

Results flagged for a closer look

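Of 174 genes named, 14 (8.05%) had a day 4 library far from the other 6, where chance flags about 1 in 20 groups, and for 12 of them it was the first library of experiment C. In that library Adam12 was at 53.1 CPM (next 35.6), Akap5 at 579 (next 445), Ano1 at 552 (next 465), Col1a1 at 255 (next 162), Rtkn2 at 34.0 (next 20.2) and Tnc at 311 CPM (next 189), each the highest of 7. It was the lowest of 7 for Asns at 71.5 CPM (next 110.4), Atf3 at 60.5 (next 92.3), Cat at 173.9 (next 248), Cebpa at 72.2 (next 85.5), Gdf15 at 21.8 (next 46.0) and Hmox1 at 197 CPM (next 302). The other 2 were Cxcl5 at 37.1 CPM in the first library of experiment B (next 26.3) and Mdm2 at 112 CPM in the third of C (next 99.7).

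The log2 difference of day 4 from fresh cells differed between experiments A, B and C for 6 of the genes named, by edgeR's test of the interaction. The adjusted p was 0.00126 for Dnajb1, 0.00165 for Txnip and Btg2, 0.00373 for Pdk4 and 0.00463 for Acot2 and Msln. For Msln, whose fresh level was 11.7, 25.2 and 49.5 CPM, the differences were 5.79, 4.72 and 3.49.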

How the results depend on the processing

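Scaling by library totals alone gave 10149 higher and 4497 lower genes, with 6683 kept, 1893 lost, 3657 gained, 88 regained and 283 part regained. Of 174 genes given with values 7 then had the other sign: Cdh1 (0.44), Foxj1 (0.37), Hp (0.46), Mdm2 (0.076), Fabp5 (0.17), Slc26a4 (0.14) and Cox6b2 (0.17). The regained genes Ager, Scd1, Ivl, Myb, Itm2a, Lgi2, Foxj1 and Hp then passed the test as higher, which they did not in the main fit. Testing against a log2 difference of 1 called 4979 genes, 1905 higher and 3074 lower. With a bound of 1.5-fold in place of 2-fold, 4428 genes were kept, 3369 gained and 741 part regained. The difference between experiments was called for 398 genes without a filter on low counts, 0 with fresh and day 4 libraries alone (edgeR, 1101 at an unadjusted p under 0.05) and 709 by DESeq2's likelihood ratio test; the cause was not tested. Without the replicate block for experiment 13771 genes were called. DESeq2 called 14824 genes and limma-voom 14483. Leaving out each of the 3 fresh and 7 day 4 libraries in turn gave 13247 to 14024 called genes, 6708 to 7108 higher, 6539 to 6916 lower, 7697 to 8275 kept, 2735 to 2892 lost, 1608 to 1757 gained, 122 to 176 regained and 440 to 496 part regained. The same gave 12799 to 13768 genes for airlift against fresh cells and 9395 to 10144 for day 4 against airlift; no airlift library was left out. Of the 174 genes, 140 kept their direction and side of the threshold under each of the 24 alternatives that gave them a value. Depth limits genes of a few counts, such as Nrk and Adam12 in fresh cells.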
